A study of Rattus norvegicus with 17 samples.

Results

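Glucose uptake, glycolysis, lactate transport and oxygen sensing were followed through 35 genes in cultured neonatal rat ventricular myocytes. The genes were taken from a list by symbol, and each gene was read from its brightest probe set, by the mean of the 17 arrays. All 35 listed genes were found among the 14506 genes that had a probe set with a single symbol. They comprise 4 glucose and lactate transporters, 18 glycolytic enzymes, 4 Pfkfb enzymes, 4 oxygen-sensing genes and 5 targets of the hypoxia response. The study asked how nocturnal hemodialysis (NHD), a long overnight form of dialysis, alters the effect that plasma of people with kidney failure (uremic plasma) has on myocyte gene expression. Ventricular myocytes of Sprague-Dawley rats, labelled as 5 days old in culture, were exposed to 10% uremic plasma taken after NHD (6 arrays), to 10% uremic plasma taken before NHD (6 arrays), to phenylephrine, an alpha-adrenergic agonist that induces hypertrophy (2 arrays), or to the plasma titled CT, taken here as control plasma (3 arrays). No genetic change is labelled in any group. The labels do not say how much control plasma was added or in what medium phenylephrine was given, so comparisons with these groups also hold any such difference. The labels call the samples biological replicates without naming separate cultures or plasma donors, so the p-values speak only of the spread among these samples.

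Glycolysis splits glucose into pyruvate in the cytosol, and lactate dehydrogenase turns pyruvate into lactate, which leaves or enters the cell through monocarboxylate transporters together with a proton. Phosphofructokinase is the main controlled step, and the Pfkfb enzymes make and remove the metabolite that activates it. When oxygen is low, prolyl hydroxylases stop marking the HIF alpha subunits for destruction, and HIF then binds a short core sequence near many glycolytic genes. Neonatal myocytes depend on glycolysis more than adult myocytes, which oxidise mainly fatty acids.

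The promoters of 4 genes are printed first because they set the values below beside the core sequence of HIF binding. Slc16a3 had the largest increase of the 35 genes with plasma after NHD against control plasma, Bnip3 and Ankrd37 are hypoxia targets of which the first rose and the second fell, and Ldha is a textbook HIF target that did not pass the test. Each sequence is from RefSeq (GRCr8), runs 5′ to 3′ on the strand of the gene and covers 250 bases before to 50 bases after the annotated start. Capitals mark ACGTG or GCGTG, the core of the HIF site, on either strand, so that CACGT and CACGC are matches on the other strand.
Slc16a3 (chr10:106712078-106712377, + strand): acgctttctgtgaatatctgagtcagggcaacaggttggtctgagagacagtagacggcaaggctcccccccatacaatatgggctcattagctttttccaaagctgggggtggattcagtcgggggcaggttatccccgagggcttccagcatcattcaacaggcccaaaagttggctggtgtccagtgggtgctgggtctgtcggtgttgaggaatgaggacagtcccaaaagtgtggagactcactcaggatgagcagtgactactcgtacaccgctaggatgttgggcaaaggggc
Bnip3 (chr1:203154913-203155212, - strand): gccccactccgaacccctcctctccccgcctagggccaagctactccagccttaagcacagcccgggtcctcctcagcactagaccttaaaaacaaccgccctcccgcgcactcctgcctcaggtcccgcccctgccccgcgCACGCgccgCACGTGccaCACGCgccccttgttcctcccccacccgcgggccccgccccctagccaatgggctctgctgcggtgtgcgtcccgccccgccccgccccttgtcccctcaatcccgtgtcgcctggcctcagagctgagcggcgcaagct
Ankrd37 (chr16:53001257-53001556, + strand): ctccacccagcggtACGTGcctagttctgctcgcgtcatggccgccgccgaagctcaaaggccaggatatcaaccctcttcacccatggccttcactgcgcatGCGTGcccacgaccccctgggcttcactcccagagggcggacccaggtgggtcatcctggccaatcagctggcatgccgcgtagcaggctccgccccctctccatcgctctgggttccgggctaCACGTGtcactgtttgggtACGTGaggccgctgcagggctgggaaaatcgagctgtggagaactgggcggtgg
Ldha (chr1:106507842-106508141, + strand): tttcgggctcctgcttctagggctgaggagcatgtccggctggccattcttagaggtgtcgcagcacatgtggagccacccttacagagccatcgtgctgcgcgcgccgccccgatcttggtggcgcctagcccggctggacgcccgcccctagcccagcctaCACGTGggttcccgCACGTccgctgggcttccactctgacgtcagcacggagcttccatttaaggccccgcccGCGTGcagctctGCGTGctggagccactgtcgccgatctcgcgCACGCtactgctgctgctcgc

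The Slc16a3 window held 0 matches, that of Bnip3 4, that of Ankrd37 5 and that of Ldha 6. In these counts a CACGTG is a match on each strand, and the windows of Bnip3, Ankrd37 and Ldha held 1 CACGTG each. Of the 35 genes, 33 had a promoter in the table and 18 of these (54.5%) held at least 1 match, against 42.9% of all 27457 promoters and 52.2% of the 11950 promoters of genes measured here. ACGTG alone was found in 42.4% of the 33 promoters and in 22.3% of those of measured genes. Part of this overlaps with the E-box CACGTG, which contains ACGTG on both strands and was present in 6 of the 33 (18.2%) and in 7.88% of those of measured genes. Among genes with a promoter, 9 of the 16 that were higher with plasma after NHD than with control plasma held a core, the 1 that was lower held it, and so did 8 of the 16 that did not pass. A match is a description of these letters and not a binding site, and a window without one says nothing about the factor.

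The values are log2 expression values on the authors' scale, which ran from 1.28 to 14.29 with array medians between 6.89 and 7.03, and the number of arrays limits their precision. Cardiac myocyte markers were bright on every array, with a mean of 10 markers between 12.39 and 13.12. Of the 35 genes, 33 had a mean at or above that of the median probe set (Pfkfb1 and Ankrd37 did not). After NHD replicate 4 stood apart in these genes: it was the lowest of the 6 after NHD arrays for 29 of 35, against 29.1% of all measured genes. Before NHD replicate 4 was the lowest of its group for 15 of 35, against 19.6% of all genes. Results that rest on these arrays are therefore given also without the after and before NHD samples numbered 4. Because these samples were picked by their values in these same genes, counts without them show dependence on the arrays only. They are no separate support for a difference. Counts below are of genes past an adjusted p of 0.05 in a limma fit of all 17 arrays, two-sided and adjusted over all 29214 probe sets by the Benjamini-Hochberg method, and errors on differences are standard errors of that fit.

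With plasma taken after NHD, 2 of 4 transporters, 10 of 18 enzymes, 3 of 4 oxygen-sensing genes and 1 of 5 hypoxia targets were higher than with control plasma. In all, 17 of 35 genes passed (16 higher, 1 lower), beside 33.0% of all 14506 genes in either direction and 16.7% higher. The median difference of the 35 genes was 0.40 log2 units, and that of all genes was -0.07. Among the brighter genes, those at or above the median probe set, 25.7% were higher, beside 16 of the 33 bright members (48.5%). The arrays of the groups did not overlap for 13 of the 35 genes (12 higher, 1 lower), beside 38.1% of all genes. Without the samples numbered 4, 21 genes were higher and 1 lower, beside 38.0% of all genes in that setting. With the SD of each array in the model, 6 were higher and 0 lower, beside 13.2%. With plasma taken before NHD, 2 of 35 genes were higher than with control plasma and 0 lower, beside 5.84% of all genes, and the median difference was 0.17. Arrays did not overlap for 7 of the 35, beside 9.31% of all genes. The count of 2 was 4 without the samples numbered 4 (6.08% of all genes in that setting), 0 without control replicate 1 or 3, and 6 higher and 1 lower without before NHD replicate 5 (19.6%). It was 4 without after NHD replicate 4 (6.27%), and 1 without before NHD replicate 1, 2 or 6, without any other after NHD array, without control replicate 2 or without either phenylephrine array. Both comparisons use the same 3 control arrays.

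**Figure D1:**
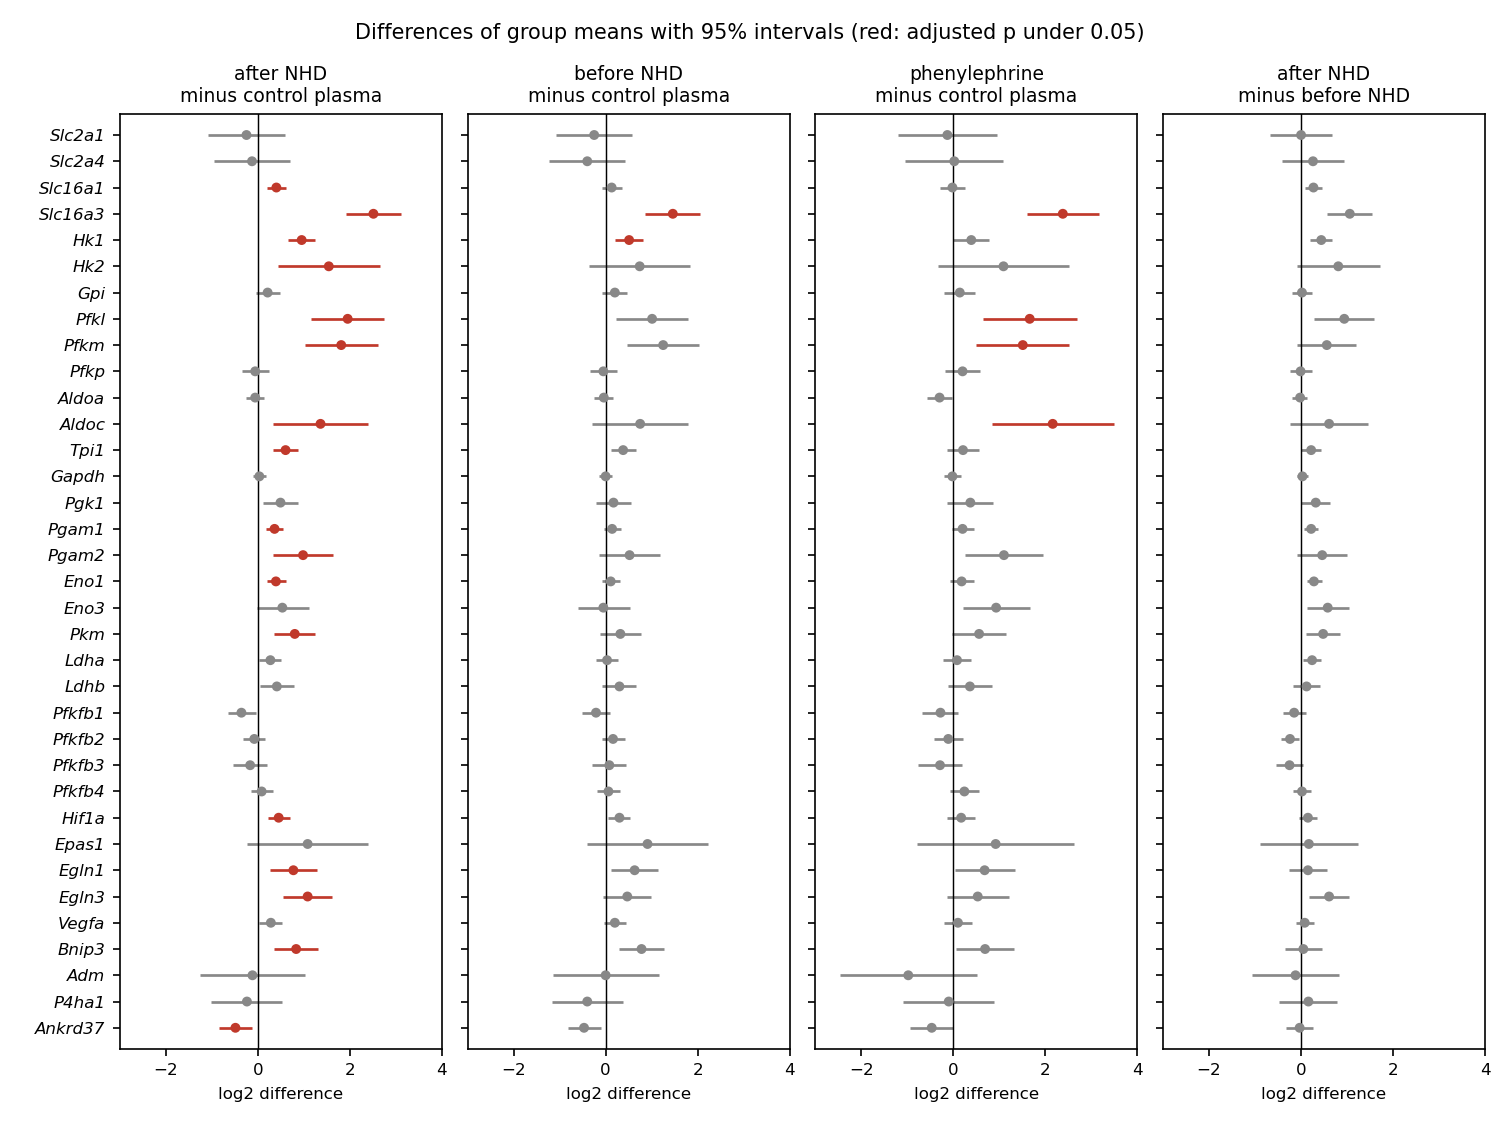
Difference of group means in log2 units (x axis) for the 35 genes (rows), as points with 95% intervals of the limma fit, for after NHD minus control plasma, before NHD minus control plasma, phenylephrine minus control plasma and after NHD minus before NHD. Red marks an adjusted p under 0.05: 17, 2, 4 and 0 genes, with Slc16a3 at 2.51, 1.46 and 2.38 in the comparisons with control plasma.

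The lactate transporter Slc16a3 (MCT4), the exporter of strongly glycolytic cells, differed most. It measured 10.23 to 11.45 (median 11.32) with plasma after NHD, 9.42 to 10.41 (median 10.18) with plasma before NHD, 10.57 and 11.29 with phenylephrine, and 8.54, 8.63 and 8.47 with control plasma. Every treated array lay above every control array. Plasma after NHD gave a difference of 2.51 ± 0.29 from control plasma, which is 5.71-fold (adjusted p = 0.000377, limma). Plasma before NHD gave 1.46 ± 0.29 (2.75-fold, adjusted p = 0.0201). Without control replicate 1 or 3 the second call was lost (adjusted p = 0.143 and 0.136), at differences of 1.45 and 1.42.

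Slc16a1 (MCT1), the widely expressed lactate and pyruvate transporter, changed less. It measured 11.90 to 12.24 (median 12.13) with plasma after NHD, 11.58 to 12.01 (median 11.85) with plasma before NHD, 11.76 and 11.62 with phenylephrine, and 11.75, 11.72 and 11.66 with control plasma. All 6 after NHD arrays lay above the controls, whereas the other groups overlapped with them. It was 0.40 ± 0.10 higher after NHD than with control plasma (adjusted p = 0.00847, limma), and the difference before NHD was 0.13 ± 0.10. The glucose transporters gave no call. Slc2a1 (GLUT1), the basal transporter, differed by -0.25 ± 0.39 after NHD and -0.25 ± 0.39 before NHD, and Slc2a4 (GLUT4), the insulin-sensitive one, by -0.13 ± 0.39 and -0.40 ± 0.39. Their intervals were wide: for Slc2a1 after NHD the 95% interval ran from -1.08 to 0.58.

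Of the 18 glycolytic enzymes, 10 were higher with plasma after NHD than with control plasma and 0 lower, beside 16.7% of all genes higher. Their median difference was 0.51, beside -0.07 for all genes. Among the enzymes, the phosphofructokinase subunits Pfkl and Pfkm had the largest differences. Pfkl, the liver-type phosphofructokinase subunit, measured 8.92 to 10.81 (median 10.66) after NHD, 8.77 to 9.94 (median 9.30) before NHD, 9.61 and 10.29 with phenylephrine, and 8.52, 7.90 and 8.45 with control plasma. Pfkm, the muscle-type subunit, measured 10.38 to 12.09 (median 11.75) after NHD, 10.14 to 11.98 (median 10.90) before NHD, 11.24 on both phenylephrine arrays, and 9.69, 9.83 and 9.69 with control plasma. For both subunits all treated arrays lay above all controls. Pfkl was 1.95 ± 0.37 higher after NHD (3.86-fold, adjusted p = 0.00156, limma) and Pfkm 1.81 ± 0.37 (3.50-fold, adjusted p = 0.0024). Before NHD the differences were 1.01 ± 0.37 for Pfkl (adjusted p = 0.113) and 1.25 ± 0.37 for Pfkm (adjusted p = 0.0610), which did not pass. For Pfkm the before NHD difference passed without before NHD replicate 4 or 5, without after NHD replicate 4 and without the samples numbered 4, and its adjusted p over all settings ran from 0.00201 to 0.216. The platelet-type subunit Pfkp differed by -0.06 ± 0.14 after NHD.

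Hexokinases trap glucose in the cell as glucose phosphate. Hk1, the constitutive form, measured 11.45 to 11.78 (median 11.63) after NHD, 10.82 to 11.51 (median 11.28) before NHD, 10.98 and 11.17 with phenylephrine, and 10.69, 10.75 and 10.62 with control plasma. It was 0.95 ± 0.14 higher after NHD than with control plasma (adjusted p = 0.000483, limma) and 0.51 ± 0.14 before NHD (adjusted p = 0.0472). The before NHD call of Hk1 ended without before NHD replicate 1, 2, 4 or 6 (adjusted p = 0.0685, 0.0898, 0.0710 and 0.0910), without any control array (0.192, 0.0661 and 0.194), without either phenylephrine array (0.0609 each), without after NHD replicate 1, 2, 3, 5 or 6 (0.0595 to 0.0632) and without the samples numbered 4 (0.0608). Hk2, the inducible and insulin-sensitive form, measured 7.43 to 10.05 (median 9.61) after NHD, 7.68 to 8.86 (median 8.18) before NHD, 7.82 and 9.42 with phenylephrine, and 7.68, 7.47 and 7.45 with control plasma. After NHD replicates 4 (7.43) and 6 (7.88) lay near the controls and the other 4 arrays far above them. Hk2 was 1.54 ± 0.52 higher after NHD (2.92-fold, adjusted p = 0.0363). That call ended without after NHD replicate 1, 2, 3 or 5 (adjusted p = 0.0708, 0.0692, 0.0688 and 0.0633) and without any control array (0.0903, 0.0851 and 0.109).

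Aldolase splits the primed sugar. Aldoc, the brain-type aldolase, measured 8.31 to 11.20 (median 10.55) after NHD, 8.47 to 10.10 (median 9.70) before NHD, 10.83 and 11.13 with phenylephrine, and 8.98, 8.83 and 8.68 with control plasma. Replicate 4 was the lowest array in both uremic groups and lay below the controls. Aldoc was 1.36 ± 0.49 higher after NHD than with control plasma (adjusted p = 0.0476, limma), close to the threshold, and 0.75 ± 0.49 before NHD. The after NHD call ended without after NHD replicate 1, 2, 3 or 5 (adjusted p = 0.0712 to 0.0906), without any control array (0.0976 to 0.142), without before NHD replicate 1, 2, 3, 5 or 6 (0.0510 to 0.0560) and without either phenylephrine array (0.0583 each). Aldoa, the muscle-type aldolase, differed by -0.06 ± 0.10 after NHD and -0.04 ± 0.10 before NHD. Gpi, which isomerises glucose phosphate, differed by 0.21 ± 0.12 after NHD.

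Enzymes after the aldolase step turn the split sugar into pyruvate. Tpi1, triosephosphate isomerase, measured 13.04 to 13.43 (median 13.39) after NHD, 12.94 to 13.43 (median 13.04) before NHD, 12.74 and 13.08 with phenylephrine, and 12.73, 12.58 and 12.78 with control plasma. All uremic arrays lay above the controls, and Tpi1 was 0.60 ± 0.13 higher after NHD (adjusted p = 0.00295, limma). Before NHD the difference of Tpi1 was 0.38 ± 0.13 (adjusted p = 0.0844). Pkm, pyruvate kinase, measured 11.76 to 12.73 (median 12.62) after NHD, 11.53 to 12.44 (median 11.94) before NHD, 12.03 and 12.35 with phenylephrine, and 11.74, 11.53 and 11.62 with control plasma. All after NHD arrays of Pkm lay above the controls, replicate 4 (11.76) by the least, and the difference was 0.80 ± 0.21 (adjusted p = 0.0116).

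Phosphoglycerate mutase and enolase rose together with these. Pgam1, the widely expressed mutase, measured 13.56 to 13.80 (median 13.72) after NHD, 13.32 to 13.57 (median 13.55) before NHD, 13.45 and 13.63 with phenylephrine, and 13.35, 13.36 and 13.31 with control plasma. Pgam2, the muscle mutase, measured 7.86 to 9.35 (median 8.56) after NHD, 7.53 to 9.03 (median 8.13) before NHD, 8.73 and 8.78 with phenylephrine, and 7.69, 7.63 and 7.64 with control plasma. Eno1, the widely expressed enolase, measured 13.41 to 13.66 (median 13.61) after NHD, 13.08 to 13.48 (median 13.27) before NHD, 13.26 and 13.45 with phenylephrine, and 13.21, 13.14 and 13.16 with control plasma. For all 3 genes every after NHD array exceeded every control array, while the before NHD arrays overlapped with the controls. After NHD the differences were 0.36 ± 0.09 for Pgam1 (adjusted p = 0.00631, limma), 0.98 ± 0.31 for Pgam2 (adjusted p = 0.0273) and 0.39 ± 0.10 for Eno1 (adjusted p = 0.00686). The Pgam2 call ended without after NHD replicate 1 or 2 (adjusted p = 0.0523 and 0.0526) and without any control array (0.0816, 0.0657 and 0.0840). Before NHD they were 0.14 ± 0.09, 0.52 ± 0.31 and 0.11 ± 0.10, and none passed.

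The other 5 enzymes of the lower pathway were not called after NHD. Pgk1, phosphoglycerate kinase, differed by 0.49 ± 0.18 (adjusted p = 0.0562, limma), and passed without before NHD replicate 1, without after NHD replicate 4 or 6, without the samples numbered 4 and in several other settings of the processing (lowest adjusted p = 0.0032). The muscle enolase Eno3 differed by 0.53 ± 0.27. Ldha, the lactate dehydrogenase subunit of muscle, measured 13.64 to 14.07 (median 13.97) after NHD, 13.37 to 13.86 (median 13.66) before NHD, 13.65 and 13.78 with phenylephrine, and 13.69, 13.52 and 13.70 with control plasma. The after NHD arrays overlapped with the controls, and the difference of 0.27 ± 0.11 did not pass (adjusted p = 0.0855), although the other Ldha probe set passed at 0.48. Ldha also passed without after NHD replicate 4 and without the samples numbered 4. Ldhb, the heart subunit, differed by 0.41 ± 0.17 (adjusted p = 0.0869) and passed in these settings too. Gapdh lay between 14.02 and 14.15 on every array and differed by 0.03 ± 0.07. Its 16 probe sets, which may share sequence with near-identical copies, gave differences from 0.02 to 0.05. The further probe sets of Pgam1, Eno1, Pkm, Egln1 and Bnip3 passed as the ones used did.

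**Figure D2:**
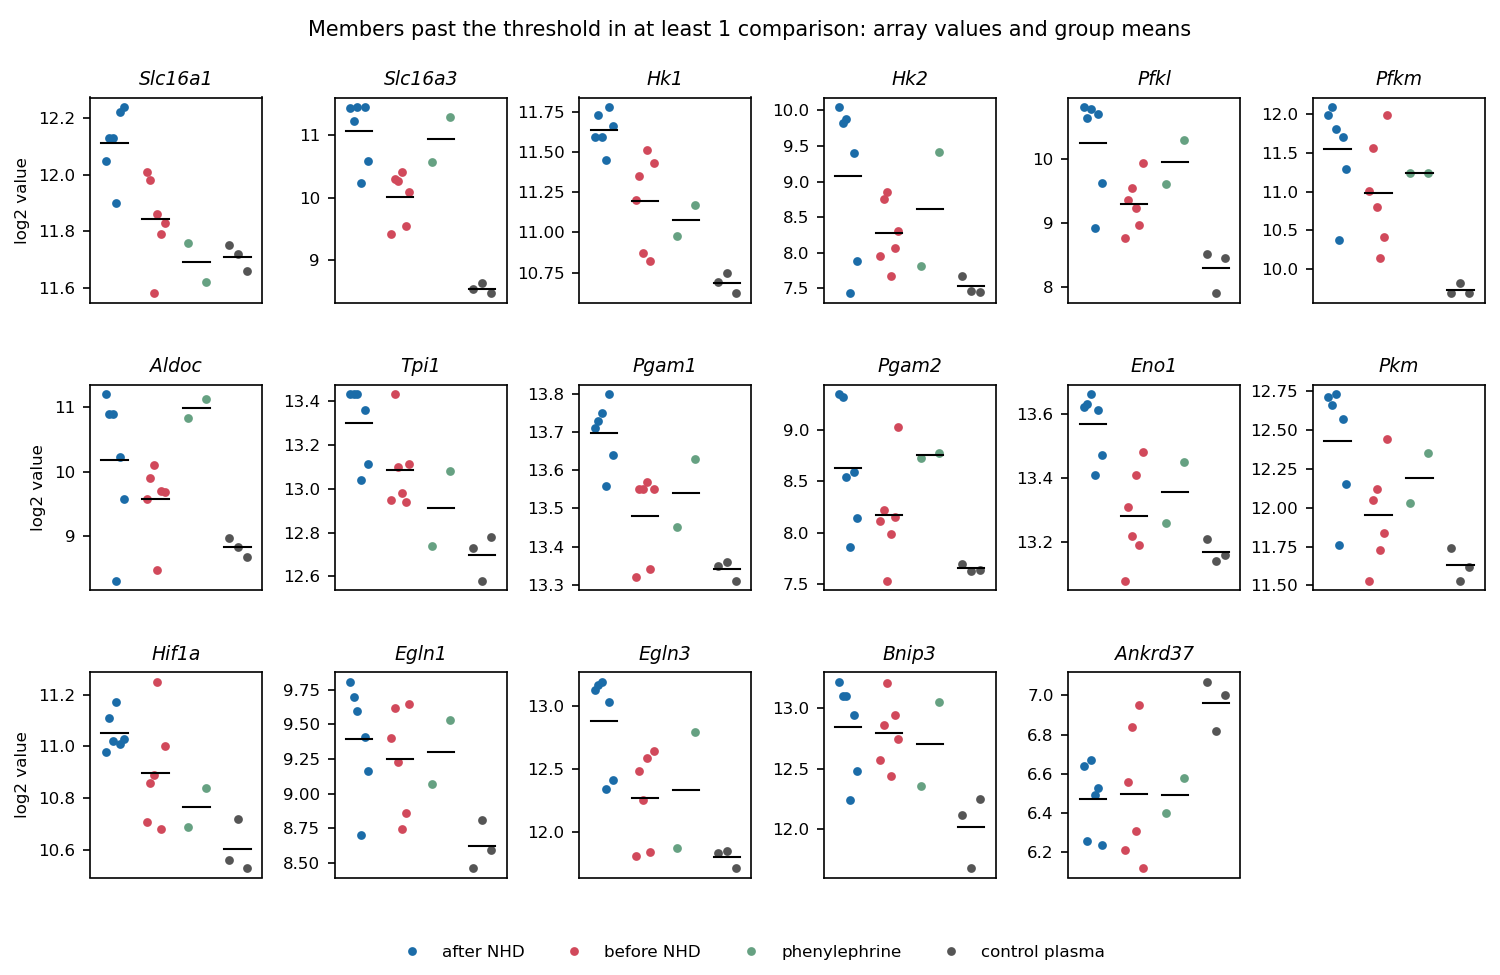
Log2 value of each array (points) and group mean (line) for the 17 genes past the threshold in at least 1 comparison, with after NHD (blue), before NHD (red), phenylephrine (green) and control plasma (grey) from left to right in each panel, each with its own y axis. Control points are tight in most panels, but less so for Pfkl (7.90 to 8.52) and Bnip3 (11.68 to 12.25). After NHD points are high in 16 panels with 1 or 2 low arrays in several of them (Hk2, 7.43 and 7.88), and Ankrd37 is lower in the treated groups.

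The Pfkfb enzymes, which set the level of the phosphofructokinase activator, gave 0 calls among 4 in each comparison with control plasma. After NHD the differences were -0.36 ± 0.15 for Pfkfb1, -0.08 ± 0.12 for Pfkfb2, -0.17 ± 0.17 for Pfkfb3, a form induced by hypoxia, and 0.08 ± 0.11 for Pfkfb4. The 95% interval of Pfkfb3 ran from -0.54 to 0.19. Pfkfb1 had an unadjusted p of 0.0259 and passed without before NHD replicate 4. Pfkfb1 was dim, at 5.88 to 6.66 on all arrays.

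Among oxygen-sensing genes, 3 of 4 were higher with plasma after NHD than with control plasma, beside 16.7% of all genes. Egln3 (PHD3), a HIF prolyl hydroxylase that HIF itself induces, measured 12.34 to 13.19 (median 13.08) after NHD, 11.81 to 12.64 (median 12.37) before NHD, 11.87 and 12.79 with phenylephrine, and 11.83, 11.85 and 11.71 with control plasma. Egln1 (PHD2), the main HIF prolyl hydroxylase, measured 8.70 to 9.81 (median 9.50) after NHD, 8.74 to 9.65 (median 9.32) before NHD, 9.07 and 9.53 with phenylephrine, and 8.46, 8.81 and 8.59 with control plasma. Hif1a, the oxygen-regulated subunit of HIF, measured 10.98 to 11.17 (median 11.03) after NHD, 10.68 to 11.25 (median 10.88) before NHD, 10.69 and 10.84 with phenylephrine, and 10.56, 10.72 and 10.53 with control plasma. Egln3 and Hif1a were higher on every after NHD array than on every control array, and Egln1 overlapped through replicate 4. The differences after NHD were 1.08 ± 0.25 for Egln3 (adjusted p = 0.00476, limma), 0.77 ± 0.24 for Egln1 (adjusted p = 0.0237) and 0.45 ± 0.11 for Hif1a (adjusted p = 0.00697). The Egln1 call ended without control replicate 1 or 3 (adjusted p = 0.108 and 0.0790). Before NHD the differences were 0.47 ± 0.25, 0.63 ± 0.24 and 0.30 ± 0.11, none of which passed, though that of Hif1a passed without before NHD replicate 5 and that of Egln1 without the samples numbered 4.

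Epas1, which encodes the alpha subunit of another HIF, was widely scattered, at 7.38 to 9.79 (median 9.25) after NHD and 7.30 to 10.57 (median 8.87) before NHD, with 9.09 and 8.71 with phenylephrine, and 7.84, 8.01 and 8.10 with control plasma. Replicate 4 lay below the controls in both uremic groups. Its difference of 1.08 ± 0.62 after NHD did not pass (adjusted p = 0.212, limma) and did without the samples numbered 4.

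The 5 hypoxia targets did not move together. Bnip3, a mitochondrial protein that promotes removal of mitochondria in hypoxia, measured 12.24 to 13.22 (median 13.02) after NHD, 12.44 to 13.21 (median 12.81) before NHD, 12.36 and 13.05 with phenylephrine, and 12.12, 11.68 and 12.25 with control plasma. All before NHD arrays lay above the controls, and after NHD replicate 4 alone fell inside their range. It was 0.83 ± 0.23 higher after NHD (adjusted p = 0.0133, limma), a call that ended without control replicate 2 (0.0708), and 0.78 ± 0.23 before NHD (adjusted p = 0.0582). The before NHD difference of Bnip3 passed without before NHD replicate 5, without after NHD replicate 4 and without the samples numbered 4. Ankrd37, an ankyrin repeat gene used as a marker of HIF activity, went the other way. It measured 6.24 to 6.67 (median 6.51) after NHD, 6.12 to 6.95 (median 6.44) before NHD, 6.40 and 6.58 with phenylephrine, and 7.07, 6.82 and 7.00 with control plasma. All after NHD arrays lay below all controls, and Ankrd37 fell by 0.49 ± 0.17 (adjusted p = 0.0396). That call ended without after NHD replicate 2, 4, 5 or 6 (adjusted p = 0.0746, 0.0507, 0.0543 and 0.0758) and without control replicate 1 or 3 (0.153 and 0.121). Vegfa, the angiogenic growth factor, differed by 0.28 ± 0.11 (adjusted p = 0.0831) and passed without after NHD replicate 6. Adm, the vasodilator peptide adrenomedullin, differed by -0.12 ± 0.54 and P4ha1, a collagen prolyl hydroxylase, by -0.24 ± 0.37. Adm spanned 7.76 to 9.95 after NHD and 7.93 to 10.31 before NHD, beside 8.88 to 9.04 with control plasma.

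The enzymes were also read array by array. Averaged over the 18 enzymes, the difference from the control mean was 1.02, 0.96, 0.89, 0.09, 0.82 and 0.40 on after NHD replicates 1 to 6. It was 0.19, 0.50, 0.41, 0.13, 0.29 and 0.58 on before NHD replicates 1 to 6, 0.45 and 0.75 with phenylephrine, and 0.06, -0.06 and 0.00 with control plasma. After NHD replicate 4 thus lay next to the controls and replicate 6 within the before NHD range, and the other 4 after NHD arrays lay above all other arrays. After NHD replicate 4 was the lowest of its group for 17 of 18 enzymes, and replicate 6 for the remaining 1. The lowest before NHD array was replicate 1 for 7 enzymes, replicate 4 for 7, replicate 5 for 2 and replicates 3 and 6 for 1 each. Each after NHD array was also placed on a scale where 0 is the control mean and 1 the mean of the other after NHD arrays. Replicate 4 had a median position of 0.42 over the 17 genes called here, beside 0.84 over all 4788 called genes. Replicate 6 had 0.66 beside 0.97. The placed array was left out of the mean at 1 but not out of the fit that called the genes. The median SD of the 35 genes was 0.299 among after NHD arrays and 0.0995 among control arrays, beside 0.161 and 0.129 for all genes.

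**Figure D3:**
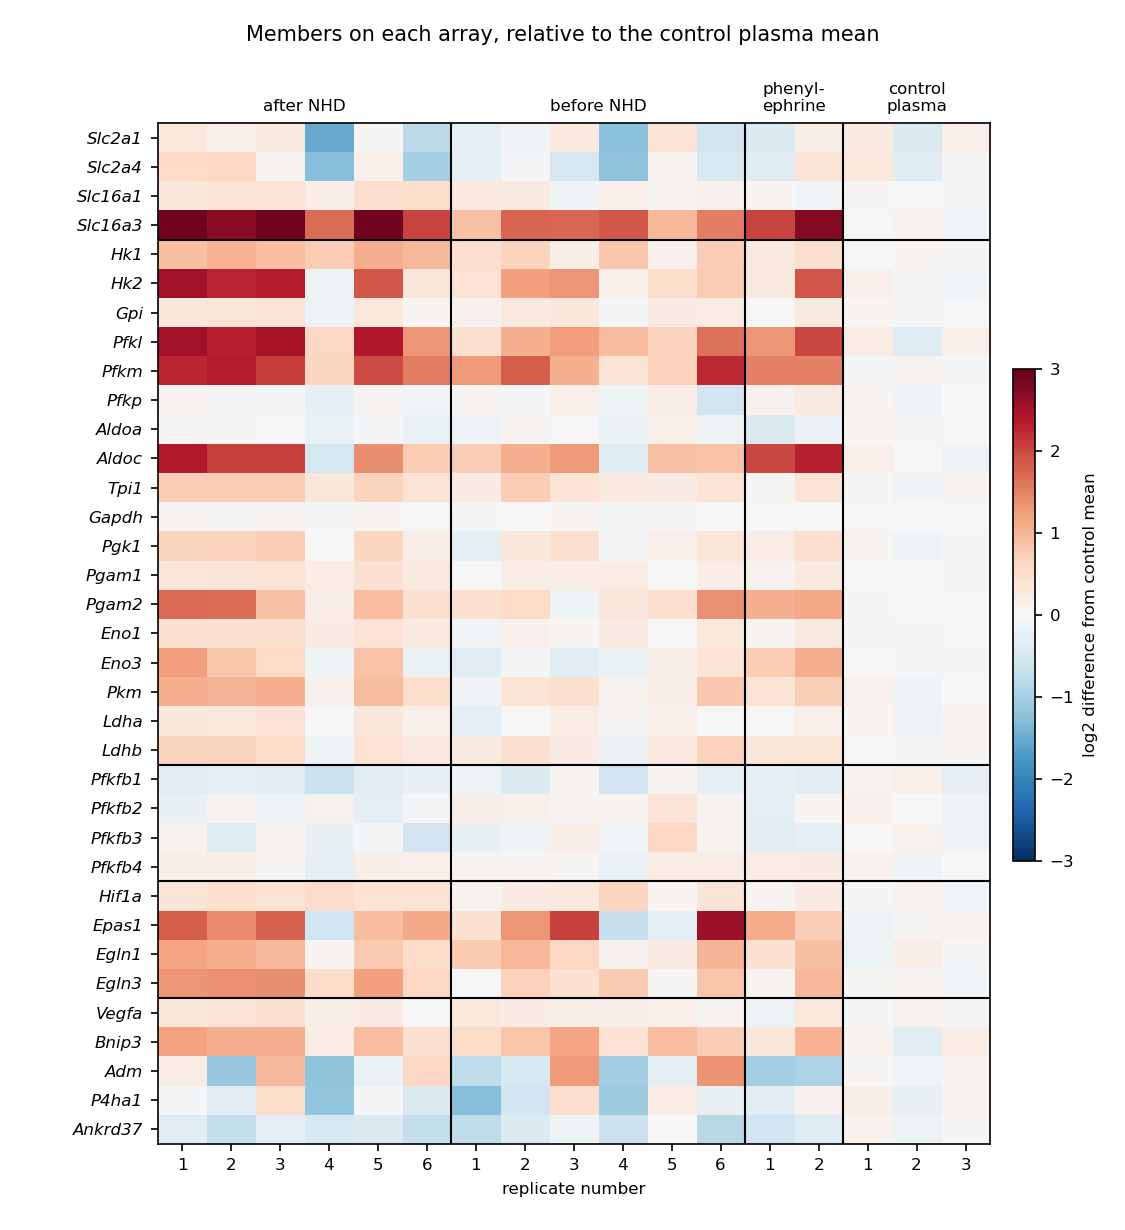
Difference of each array (columns, by replicate number within after NHD, before NHD, phenylephrine and control plasma) from the control plasma mean, in log2 units (colour), for the 35 genes (rows; lines part transporters, enzymes, Pfkfb enzymes, oxygen-sensing genes and hypoxia targets). Slc16a3 is red on all treated arrays, and most enzyme rows of after NHD replicate 4 are pale, with an enzyme mean of 0.09 against 1.02 on replicate 1.

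Markers of other cell types were read on the same arrays. Over 11 fibroblast markers the mean level was 7.14 to 9.45 after NHD, 6.89 to 9.56 before NHD, 9.57 to 9.82 with phenylephrine and 7.96 to 8.09 with control plasma. Of these 11, only S100a4 was called after NHD (1.35 ± 0.24), and it alone with phenylephrine (1.84 ± 0.31). After against before NHD, S100a4 was also higher (1.03 ± 0.20, adjusted p = 0.0400, limma). After NHD replicate 2 had a fibroblast marker mean at -0.59 from the control mean and an enzyme mean at 0.96, and replicate 4 had -0.89 and 0.09. Of 10 myocyte markers, 6 were higher after NHD, 3 before NHD and 3 with phenylephrine than with control plasma, and 0 were lower. Of all genes, 33.0%, 5.84% and 23.6% passed in these comparisons, in either direction. The after NHD mean of the myocyte markers lay 0.53 to 0.72 above the control mean on all 6 arrays, replicate 4 included (0.53). The 8 endothelial markers averaged 6.44 to 7.14 after NHD, 6.40 to 7.30 before NHD, 7.20 with phenylephrine and 6.65 to 6.73 with control plasma. Among them Kdr was higher than with control plasma in all 3 treated groups (1.58 ± 0.49 after NHD, 1.79 ± 0.49 before NHD and 1.89 ± 0.63 with phenylephrine), and Cdh5 with phenylephrine (0.51 ± 0.11). The 6 smooth muscle markers averaged 9.58 to 10.28, 9.69 to 10.72, 9.95 to 10.07 and 10.29 to 10.54 in the same groups, and the 8 leukocyte markers 5.73 to 6.30, 5.70 to 6.51, 6.27 to 6.39 and 5.97 to 6.02. Of the smooth muscle markers Cnn1 was lower after NHD (-1.16 ± 0.29) and Acta2 with phenylephrine (-0.40 ± 0.12), while 0 leukocyte markers were called. Averages of 3 erythroid and 4 neural markers lay between 6.10 and 6.79 on every array, and of these Slc4a1 was lower after NHD (-0.41 ± 0.10) and with phenylephrine (-0.48 ± 0.13). Log2 array values have no true 0, so none of these markers can be called absent. The part of cell composition in the results was not tested, and fewer cells of a type cannot be told apart from less RNA per cell in such cultures.

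**Figure D4:**
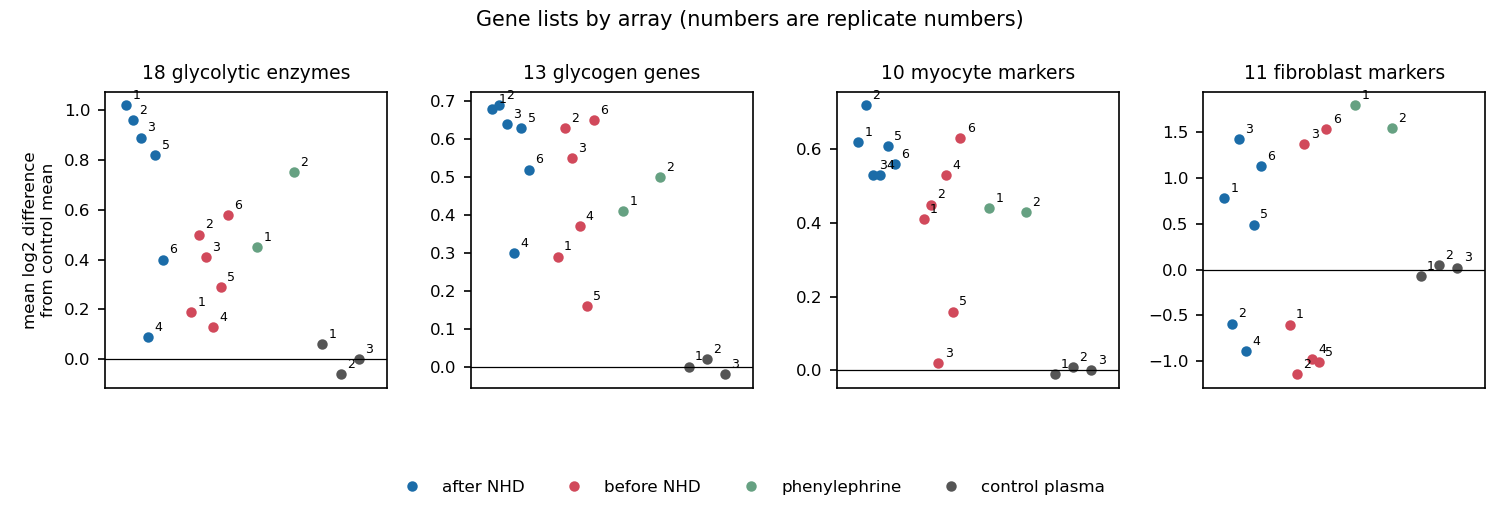
Mean log2 difference from the control plasma mean (y axis) on each array (points, numbered by replicate) for the 18 enzymes, 13 glycogen genes, 10 myocyte markers and 11 fibroblast markers, with after NHD, before NHD, phenylephrine and control plasma from left to right. Enzymes of after NHD replicate 4 (0.09) sit near 0 while its myocyte markers (0.53) do not, and fibroblast markers are spread from -0.89 to 1.42 within the after NHD group.

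Plasma after NHD was then set against plasma before NHD, the comparison the study was built on. Of the 35 genes, 0 passed with limma, beside 0.483% of all genes. The differences were positive for 27 of 35 genes, with a median of 0.17, beside -0.01 for all genes. All 11 fibroblast markers (median 0.54, 1 called) and all 10 myocyte markers (median 0.25, 0 called with limma) were positive in this comparison too. Their part in the result was not tested. No gene had arrays without overlap, beside 0.669% of all genes. Slc16a3 differed by 1.06 ± 0.23 (95% interval 0.56 to 1.55, adjusted p = 0.0606), Hk1 by 0.44 ± 0.12 (adjusted p = 0.0821), Eno1 by 0.28 ± 0.08 (adjusted p = 0.0875) and Slc16a1 by 0.27 ± 0.08 (adjusted p = 0.108). Pfkl differed by 0.94 ± 0.30 (adjusted p = 0.118) and Egln3 by 0.61 ± 0.20 (adjusted p = 0.125). The count of genes that passed by adjusted p was 8 without the samples numbered 4, beside 11.3% of all genes in that setting. It was 3 without before NHD replicate 4 (11.0% of all genes), 3 without after NHD replicate 4 (2.85%) and 5 without before NHD replicate 6 (11.5%), and 0 without any other single array. Without the samples numbered 4, Slc16a1, Slc16a3, Hk1, Pfkl, Pgam1, Eno1, Pkm and Egln3 passed. Since the samples numbered 4 were picked by their low values in the 35 genes, these calls are no separate support. Bnip3 differed by 0.05 ± 0.19, Epas1 by 0.17 ± 0.51 and Ankrd37 by -0.03 ± 0.14.

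Phenylephrine raised 4 of the 35 genes over control plasma and lowered 0, beside 23.6% of all genes, with a median difference of 0.20. These were Slc16a3 (2.38 ± 0.37, adjusted p = 0.000769, limma), Aldoc (2.16 ± 0.63, adjusted p = 0.0251), Pfkl (1.66 ± 0.48, adjusted p = 0.0245) and Pfkm (1.51 ± 0.48, adjusted p = 0.0385). Of the other members, Pgam2 differed by 1.10 ± 0.40, Hk2 by 1.09 ± 0.67, Eno3 by 0.93 ± 0.35 and Hk1 by 0.39 ± 0.18, and none of these passed. Both phenylephrine arrays lay outside the control range for 23 of 35 genes, beside 63.7% of all genes. Leaving out either phenylephrine array left 1 gene, Slc16a3, and so did leaving out control replicate 2, while 2 passed without control replicate 1 or 3. The count was 6 without after NHD replicate 4 or without the samples numbered 4, where Pgam2 and Eno3 also passed (25.4% and 29.2% of all genes). It was 11 higher and 2 lower, Adm and Ankrd37, when only the phenylephrine and control arrays were fitted (38.4%). Against plasma before NHD, phenylephrine gave 0 calls (5.77% of all genes), 1 without before NHD replicate 6 or after NHD replicate 4, and 2 without the samples numbered 4. Against plasma after NHD it gave 0 calls as well (1.35% of all genes), with Hk1 at -0.56 ± 0.16, Slc16a1 at -0.42 ± 0.12 and Aldoc at 0.80 ± 0.56.

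Further genes of the same pathways, 77 of 85 listed, were read beside these. After NHD 20 were higher and 5 lower than with control plasma (32.5% in either direction, beside 33.0% of all genes). That count was 15 and 16 without control replicates 1 and 3. Of 13 glycogen genes, 9 were higher and 1 lower. Gys1, muscle glycogen synthase, rose by 2.14 ± 0.27 after NHD (adjusted p = 0.000416, limma), with mean levels of 11.73 ± 0.17 after NHD and 9.59 ± 0.03 with control plasma (SD, n = 6 and 3). Gyg1, the glycogenin that primes glycogen, rose by 0.76 ± 0.10, Phka1 and Phkb, subunits of phosphorylase kinase, by 1.16 ± 0.22 and 0.59 ± 0.12, and Ugp2, which supplies UDP-glucose for glycogen, fell by 0.81 ± 0.20. Outside glycogen metabolism Higd1a, a mitochondrial protein induced by hypoxia, rose by 1.22 ± 0.22 and Mpc1, a subunit of the mitochondrial pyruvate carrier, by 0.67 ± 0.15. Egln2 (PHD1), another HIF prolyl hydroxylase, fell by 0.76 ± 0.13 (adjusted p = 0.00084), so that 1 of the 3 prolyl hydroxylases went against Egln1 and Egln3. Kdm4c, a histone demethylase, fell by 0.47 ± 0.11, Gfpt1, which opens the hexosamine pathway, by 0.65 ± 0.20 and Rpia, of the pentose phosphate pathway, by 0.46 ± 0.15.

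Before NHD 9 of the 77 further genes were higher than with control plasma and 0 lower, beside 5.84% of all genes. Of these 5 belonged to glycogen metabolism, with Gys1 at 1.43 ± 0.27 (adjusted p = 0.0193, limma), Phka1 at 0.91 ± 0.22, Phkb at 0.66 ± 0.12 and Gyg1 at 0.46 ± 0.10 among them. Gpd1, the cytosolic glycerol phosphate dehydrogenase, rose by 1.07 ± 0.26 and Taldo1, transaldolase, by 0.80 ± 0.19. None of the 9 passed without control replicate 1 or 3, and the count was 5, 2 and 2 without before NHD replicates 1, 2 and 6 and 15 higher and 3 lower without replicate 5. After against before NHD 0 of the 77 passed with limma, beside 0.483% of all genes. The number that passed by adjusted p, 0 with all arrays, was 9 without before NHD replicate 4 and 6 without before NHD replicate 6. It was 3 without after NHD replicate 4 and 6 without the samples numbered 4. The share of all genes past the threshold also rose from 0.483% in each of these settings, as given above for the same comparison. These counts therefore need not be particular to the 77 genes.

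With phenylephrine 9 of the 77 were higher and 6 lower than with control plasma, beside 23.6% of all genes. Pygl, liver glycogen phosphorylase, rose by 1.92 ± 0.43 (adjusted p = 0.00607, limma), Phka1 by 1.25 ± 0.28, Gys1 by 1.19 ± 0.35, Pgm2 by 1.17 ± 0.37, Taldo1 by 1.01 ± 0.25 and Gyg1 by 0.66 ± 0.13. Kdm4c fell by 0.70 ± 0.15, Jmjd6 by 0.68 ± 0.16, Arnt, the constant partner of the HIF alpha subunits, by 0.57 ± 0.13 and Egln2 by 0.59 ± 0.17. Gpd2, the mitochondrial glycerol phosphate dehydrogenase, fell by 0.78 ± 0.23 and Ugp2 by 0.89 ± 0.26. Without phenylephrine replicate 1 the count was 2 higher and 1 lower, without replicate 2 it was 2 in each direction, and without control replicate 1 or 3 it was 4 higher with 4 or 5 lower. All comparisons with control plasma share its 3 arrays.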

How the data were processed

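The deposited table holds log2 expression values of 29214 probe sets on 17 single-colour arrays, which the authors derived by RMA (per the submitters' processing notes); its version is not given in the sources used here, and no scanner files were used. The values were taken as deposited, and 0 columns of the table were left out. A symbol was taken from the platform annotation, updated through Entrez identifiers (15279 probe sets); 15310 probe sets had 1 symbol, 323 several and 13581 none, and the brightest single-symbol probe set stood for each of 14506 genes. Groups came from the sample titles.

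Tests used limma 3.58.1 in R 4.3.3, with 1 fit of 4 groups over every probe set, 6 comparisons, no covariates, empirical Bayes variances (13 residual and 3.32 prior degrees of freedom), and Benjamini-Hochberg adjustment within each comparison at 0.05. The fit was also run on simulated data in which each probe set had the same SD in all groups. That run therefore does not speak of groups with unequal spread. Differences are means of the first named group minus the second, with standard errors, and intervals are 95%.

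Every member past the threshold in a comparison was described with all groups. The others were given by their difference and standard error, and some also by range. Of the further pathway genes, up to 6 per direction and comparison were named by smallest adjusted p. The members and lists were chosen with earlier results of these data known. Alternatives were each array left out, the samples numbered 4 left out, dim probe sets removed, 1 or the mean of probe sets per gene, a repeated quantile normalization, eBayes with a trend and robust prior, compared groups only, array weights, a replicate block, array SD as a covariate, and a 1.5-fold minimum. The labels name no batch. Promoters were read from RefSeq tables of GRCr8.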

Additional observations from a re-analysis of the deposited data

Results flagged for a closer look

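In the 70 groups of 6 arrays tested (35 genes, after and before NHD), 5 had 1 array far from the others, where chance gives about 3.50. Of these, 3 were after NHD replicate 4. Pfkfb1 was 5.88 there, beside 6.18 to 6.27 on the other after NHD arrays, Pfkfb4 was 7.27, beside 7.55 to 7.72, and Epas1 was 7.38, beside 8.94 to 9.79. Aldoc was 8.47 on before NHD replicate 4, beside 9.57 to 10.10 on the other before NHD arrays. Tpi1 was 13.43 on before NHD replicate 2, beside 12.94 to 13.11. Groups of 2 or 3 arrays were not tested.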

How the results depend on the processing

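Of 23 member values past the threshold, 6 kept their call in all 28 alternatives: Slc16a3, Hk1, Pfkl, Pfkm and Tpi1 after NHD over control plasma, and Slc16a3 with phenylephrine over control plasma. No called value turned its sign under any of them. Over 5868 member values under alternatives, 92 lost a call and 123 gained one, and 179 changed sign without a call in either setting. The share of all genes past the threshold also changed with the setting, as given above for some settings. A changed count below therefore need not be particular to these genes.

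After NHD over control plasma, the 17 members called became 6 with the array SD as a term and 12 to 19 without single arrays. Array weights added Gpi, Pgk1, Eno3, Ldha, Ldhb, Epas1 and Vegfa and lost none. The 1.5-fold minimum lost Slc16a1, Pgam1, Eno1, Hif1a and Ankrd37. Before NHD over control plasma, the 2 members called became 4 among bright probe sets, 0 with compared groups only, 8 with array weights, 0 with the array SD as a term, 1 with a 1.5-fold minimum, 4 without the samples numbered 4, and 0 to 7 without single arrays. For phenylephrine over control plasma, 4 became 13 with compared groups only, 13 with array weights, 2 with the array SD as a term, and 1 to 6 without single arrays. After over before NHD, 0 became 1 among bright probe sets, 7 with array weights, 8 without the samples numbered 4, and 0 to 5 without single arrays. Phenylephrine over before NHD gave 1 with array weights, 2 without the samples numbered 4 and 0 to 1 without single arrays, and over after NHD it gave 1 with compared groups only and 4 with array weights.

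Of the 77 further genes, after over before NHD gave 1 among bright probe sets, 10 with array weights, 6 without the samples numbered 4 and 0 to 9 without single arrays. Before NHD over control plasma, 9 became 0 with compared groups only, 21 with array weights, 0 with the array SD as a term and 0 to 18 without single arrays. After NHD over control plasma, 25 became 40 with array weights, 8 with the array SD as a term and 15 to 30 without single arrays. For phenylephrine over control plasma, 15 became 33 with compared groups only, 36 with array weights and 3 to 18 without single arrays. The causes were not tested.

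With the replicate number as a replicate block, 0 members were called after over before NHD, 22 after NHD over control plasma and 7 before NHD over control plasma, and 18 further genes in the last. Before NHD over control plasma, Pfkm, Aldoc, Tpi1, Epas1, Egln1 and Bnip3 passed with this block, and Hk1 did not. In deviations from the group means, uremic samples with the same number correlated at 0.10, 0.42, 0.60, 0.57, -0.03 and 0.25 for numbers 1 to 6. Samples sharing a number in the other pairs of groups gave -0.03 to 0.14. The labels state no pairing, so the main fit did not pair samples by number. Shared donors or batches behind these numbers were not tested. With 2 phenylephrine and 3 control arrays, precision is limited by the number of arrays.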
